A study of Homo sapiens with 6 samples.

Results

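The genes described here are 10 well-known target genes of the transcriptional co-activators YAP and TAZ: CCN1, CCN2, ANKRD1, AMOTL1, AMOTL2, F3, NT5E, MYOF, CRIM1 and AJUBA. They were taken by symbol from the count tables of an RNA-Seq experiment, and all 10 were found among the 28278 listed genes. The experiment used HT29 cells, a human colorectal adenocarcinoma line of epithelial morphology. Cells transfected with siRNA against ALDOA (siALDOA) were compared with cells given a scrambled siRNA (siControl). ALDOA encodes aldolase A, an enzyme of glycolysis. Each group held 3 libraries that the labels call biological replicates, all from RNA taken 48 h after transfection. Nothing in the labels says whether the replicates were separate cultures, so that the p-values measure the spread between these libraries. The only sequence against ALDOA in the study's methods is that of an shRNA, and it was not used here. The number of siRNAs against ALDOA is not stated in the sources used here. The loss of ALDOA and any other effect of the siRNA treatment cannot be told apart.

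YAP and TAZ shuttle between cytoplasm and nucleus and act as co-activators of the TEAD transcription factors. The kinases of the Hippo pathway phosphorylate both and hold them outside the nucleus, and AMPK, a kinase that responds to low cellular energy, can phosphorylate YAP as well. Target genes with TEAD sites are therefore often read as a measure of nuclear YAP activity, and the study asked whether ALDOA acts on YAP. The target genes code for secreted proteins (CCN1 and CCN2), a nuclear co-factor (ANKRD1), cell-surface proteins (F3 and NT5E), proteins that feed back on the Hippo pathway (AMOTL1, AMOTL2 and AJUBA) and membrane proteins (MYOF and CRIM1).

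The libraries held between 27277538 and 33237914 counts on genes. Ribosomal RNA genes took 7.71% to 13.1% of the siALDOA counts and 8.15% to 17.4% of the siControl counts. Levels are given as CPM, the counts of a gene per 1000000 counts of its library, after TMM scaling, which corrects for a few abundant genes that take counts from the rest. The targeted gene ALDOA stood at 283, 305 and 280 CPM with siALDOA and at 592, 637 and 668 CPM with siControl, in the direction of the labels. Of 10 markers of colon epithelium, 9 had enough counts to be tested and LGALS4 was at 0 counts in every library. The epithelial markers summed to between 8390 and 8620 CPM with siALDOA and between 9200 and 9660 CPM with siControl. The keratins KRT8 (means of 5090 and 5600 CPM) and KRT18 (1910 and 2320 CPM) carried most of that gap, and EPCAM went the other way (374 and 341 CPM). Of the 9 tested epithelial markers 8 had a log2 fold change below 0. Their median was -0.14, beside 0.00 over all tested genes. Of 10 fibroblast markers 2, COL1A2 and PDGFRA, were at 0 in all 6 libraries, and the list summed to between 3.16 and 4.47 CPM with siALDOA and between 3.24 and 4.46 CPM with siControl. Of 6 endothelial markers KDR was at 0 throughout, and the list summed to between 1.09 and 1.90 CPM with siALDOA and between 2.03 and 2.50 CPM with siControl. Of 8 blood cell markers TYROBP, CD3E and MS4A1 were at 0 throughout, and the sum stayed at or below 0.251 CPM. The markers that passed the threshold described below were KRT18, an epithelial keratin, and PECAM1, an endothelial marker, both lower with siALDOA (log2 fold changes of -0.28 and -1.23, edgeR adjusted p = 0.0152 and 0.0429). The part of these markers in the values below was not tested. In bulk RNA, a change of a gene in every cell and a change in the share of cells that express it cannot be told apart.

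The target genes covered a wide range of levels in HT29 cells. Per kilobase of transcript, the scale on which genes can be compared, NT5E was the highest at 36.7 CPM per kb over the 6 libraries, with a highest library at 44.9. AJUBA followed at 20.4, AMOTL2 at 16.0, MYOF at 10.8 and CRIM1 at 4.69 CPM per kb. The 6-library ranges of these 5 genes did not overlap, so that their order was the same in every library. Next came CCN2 at 2.25 CPM per kb with a range from 1.82 to 3.20, CCN1 at 1.76 with a range from 1.45 to 2.00 and F3 at 1.15 with a range from 0.625 to 1.67. CCN2 lay above CCN1 in 5 of the 6 libraries, and CCN1 lay above F3 in all 6, although the ranges of neighbouring genes overlapped in both cases. ANKRD1 was at 0.107 CPM per kb, with a highest value of 0.295, and AMOTL1 had 0 counts in every library. Among the 14469 tested genes with a transcript length, NT5E stood at percentile 86.2, AJUBA at 74.9, AMOTL2 at 68.9, MYOF at 58.3 and CRIM1 at 37.1 of the level per kilobase. CCN2, CCN1 and F3 stood at percentiles 24.5, 21.4 and 16.9. NT5E made up 34.2% to 36.9% of the summed CPM of the 10 genes with siALDOA and 27.4% to 29.9% with siControl.

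**Figure D1:**
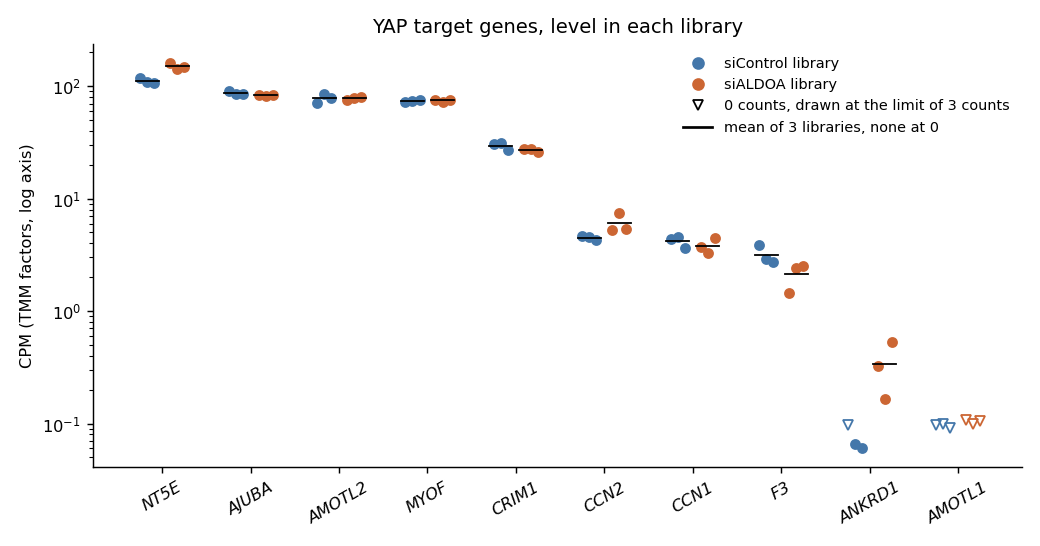
CPM of each YAP target gene in each of the 6 libraries, on a log axis, with genes ordered by their level per kilobase. Filled points are libraries with counts, open triangles are libraries with 0 counts drawn at the limit of 3 counts, and lines are group means, left out where a library had 0 counts. NT5E was above 100 CPM in every library, CCN1, CCN2 and F3 lay below 10 CPM, and AMOTL1 was at 0 counts throughout.

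With siALDOA, 1 of the 10 target genes, NT5E, changed past the threshold, and it rose. A total of 8 genes had enough counts for edgeR's filter and were compared by its quasi-likelihood test at a Benjamini-Hochberg adjusted p below 0.05, fitted and adjusted over all 15307 tested genes. ANKRD1 had too few counts for the filter, and AMOTL1 had none. Over all tested genes 9.66% passed this threshold, 4.36% higher and 5.29% lower with siALDOA, so that 1 of 8 is close to the background share. None of the 8 genes was lower past the threshold in edgeR, limma-voom or DESeq2, and at an unadjusted p below 0.05 in edgeR 1 was lower, F3, and 2 were higher, NT5E and CCN2. At that level 12.3% of all tested genes were lower and 11.3% higher. At the study's own threshold of an unadjusted P below 0.01, which 12.5% of all tested genes passed (5.72% higher and 6.74% lower), NT5E was the member called among the 8 tested.

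The log2 fold changes of the 8 tested genes, siALDOA minus siControl, ran from -0.56 for F3 to 0.44 for NT5E, with 3 positive and 5 negative values. Their median was -0.04, beside 0.00 over all tested genes. The CPM of the groups did not overlap in 4 of the 8 genes, NT5E and CCN2 being higher and F3 and AJUBA lower with siALDOA, while 27.7% of all tested genes had groups that did not overlap. The summed CPM of the 10 genes was 433, 416 and 427 with siALDOA and 395, 394 and 385 with siControl. Without NT5E the sums were 273, 273 and 278 CPM with siALDOA and 277, 286 and 278 CPM with siControl. The separation of the summed levels thus rested on NT5E, and the remaining genes summed to nearly the same level in both groups. That remaining sum came mostly from AJUBA, AMOTL2, MYOF and CRIM1, with means of 83.2, 77.7, 74.6 and 27.1 CPM with siALDOA. The siALDOA means of CCN2, CCN1 and F3 were 6.03, 3.82 and 2.13 CPM, and ANKRD1 was lower still. Changes of these weakly expressed genes would hardly show in the sum.

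**Figure D2:**
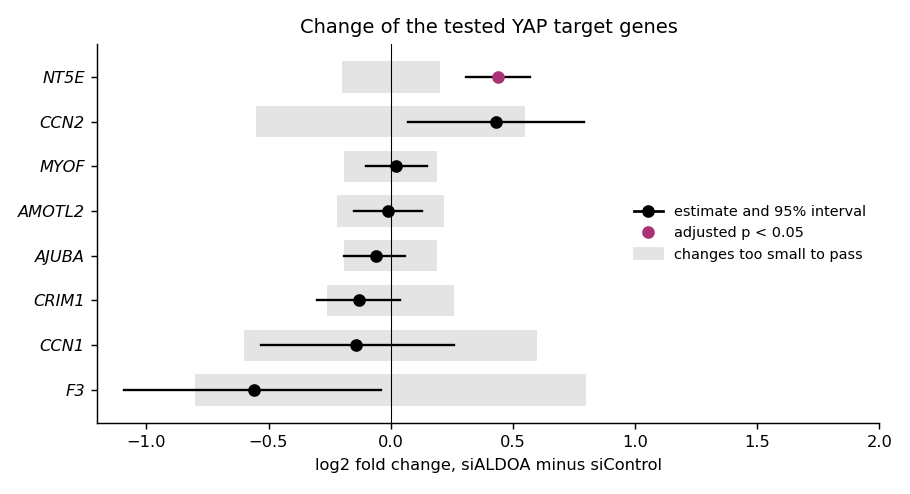
Log2 fold change of the 8 tested YAP target genes, siALDOA minus siControl, with its 95% interval. The grey bars span changes that would not have passed the adjusted threshold with the gene's own standard error. The point of NT5E (0.44) lies outside its bar, and the other 7 points lie inside theirs.

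CCN2 and CCN1, long known as CTGF and CYR61, encode secreted matricellular proteins that bind integrins and are the most used read-outs of YAP. CCN2 (ENSG00000118523, minus strand, chr6:131948176-131951372 in hg38) was at 5.21, 7.49 and 5.38 CPM with siALDOA, from 145, 225 and 153 counts. With siControl it was at 4.68, 4.52 and 4.25 CPM, from 146, 138 and 140 counts. All siALDOA libraries were above all siControl libraries, and siALDOA replicate 2 stood apart from the other two. The log2 fold change of CCN2 was 0.43 (standard error 0.174, 95% interval 0.07 to 0.79, edgeR adjusted p = 0.132), short of the threshold. It was 0.24 without siALDOA replicate 2 and 0.52 without siALDOA replicate 1. The exact two-sided permutation test of the CPM gave p = 0.100, the smallest value that 3 libraries against 3 allow.

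The window from 250 bases before to 50 bases after the start of CCN2, in the RefSeq promoter table for GRCh38.p14, holds the TEAD motif GGAATG 3 times. The motif or its reverse complement CATTCC occurs in 4928 of all 35116 windows of that length. That figure counts windows, whereas a target gene is counted if any of its windows matches. The table gives 10 windows for 8 of the target genes, and 4 of these genes, CCN2, ANKRD1, AMOTL2 and AJUBA, have a window with the motif. Those of CCN2 and ANKRD1 lie at the start of the main transcript. The window of AMOTL1, drawn around a start site 61925 bases inside the span of its main transcript, holds no TEAD motif. CCN1 and CRIM1 were not in the table. The matches are shown for CCN2 because its promoter carries the most matches and its mRNA was among the study's qRT-PCR read-outs, with the motif in capitals, 5′ to 3′ on the strand of the gene:
CCN2, first motif base at -169, chr6:131951524-131951553, minus strand: ttttcagacggaGGAATGctgagtgtcaag
CCN2, first motif bases at -104 and -95, chr6:131951459-131951488, minus strand: ggaaggtggggaGGAATGcgaGGAATGtcc
A match describes these letters, and binding was not measured. The study's primers for CTGF are the other sequences tied to this gene:
CTGF forward primer: cctggtccagaccacagagt
CTGF reverse primer: tgtcttcatgctggtgcag
The forward primer matches exon 4 (chr6:131950086-131950105) and the reverse primer exon 5 (chr6:131949480-131949498) of the CCN2 transcript ENST00000367976, and neither occurs exactly in the main transcript of another gene. The RNA-Seq counts cover the whole gene, whereas the primers span bases 797 to 1034 of a transcript of 2338 bases. The lncRNA LINC01013 on the opposite strand overlaps 11.9% of this transcript, and it had 0 counts in all 6 libraries.

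CCN1 (ENSG00000142871, chr1:85580761-85584589) was at 3.74, 3.29 and 4.43 CPM with siALDOA and at 4.39, 4.55 and 3.67 CPM with siControl. The groups overlapped, with siALDOA replicates 1 and 3 within the range of the siControl libraries. The log2 fold change of CCN1 was -0.14 (standard error 0.190, 95% interval -0.53 to 0.26, edgeR adjusted p = 0.721). It was -0.26 without siALDOA replicate 3 and -0.04 without siALDOA replicate 2. The transcripts of CCN1 and CCN2 share no stretch longer than 18 bases, far shorter than a read. These related genes stood at similar levels, and their estimates had opposite signs with intervals that overlapped.

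ANKRD1, also called CARP, encodes an ankyrin-repeat protein of the nucleus and sarcomere that is strongly expressed in heart muscle and is a classical YAP target in other cells. In HT29 cells ANKRD1 (ENSG00000148677, chr10:90912096-90921087) was near the limit of detection. It had 9, 5 and 15 counts in the siALDOA libraries and 0, 2 and 2 counts in the siControl libraries. These are 0.323, 0.166 and 0.528 CPM with siALDOA and 0, 0.0655 and 0.0607 CPM with siControl. The count of 0 in siControl replicate 1 allows a level of up to 0.0962 CPM, the worth of 3 counts. Its exact 95% counting interval, which splits the error between both ends, reaches 0.118 CPM. Every siALDOA library was above every siControl library, and the 95% counting interval of siALDOA replicate 2 (0.0540 to 0.388 CPM) overlapped those of all 3 siControl libraries. Of 2515 genes that did not pass the filter and had at least 10 counts in all, 11.8% had groups that did not overlap, 7.36% with siALDOA higher.

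The summed counts of ANKRD1 were 29 with siALDOA and 4 with siControl, a ratio of 7.95 after scaling, with an exact 95% interval from 2.79 to 31.1 that covers counting error only. In an edgeR fit without the filter, the log2 fold change of ANKRD1 was 2.88 (standard error 1.089, 95% interval 0.75 to 5.02) with an unadjusted p = 0.00815, below the study's threshold, and an adjusted p = 0.0782, in a fit that called 8.78% of its genes. The same fit gave 2.35 without siControl replicate 1 and 3.28 without siControl replicate 2, with adjusted p-values up to 0.363 when 1 library was left out. limma-voom without the filter gave 2.79 with an adjusted p = 0.0389, and DESeq2 gave 3.01 with no adjusted p. Without siALDOA replicate 2, the lowest siALDOA library, the fit without the filter gave 3.21 with an adjusted p = 0.0758. ANKRD1 passed the ordinary filter in that setting, but only through the counts of the group in which it was higher, so its p there is not used. The exact two-sided permutation test of the CPM could not go below its smallest value and gave p = 0.100. Whether ANKRD1 passed the threshold thus depended on the tool, while siALDOA was the higher group in each of these fits. Its window holds 1 match of the AP-1 motif TGANTCA and 2 TEAD motifs. The latter are shown because ANKRD1 had the largest ratio of the members, a choice that ties no motif to that ratio:
ANKRD1, first motif base at -220, chr10:90921290-90921319, minus strand: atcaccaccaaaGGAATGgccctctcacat
ANKRD1, first motif base at -128, chr10:90921198-90921227, minus strand: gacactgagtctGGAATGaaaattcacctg

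**Figure D3:**
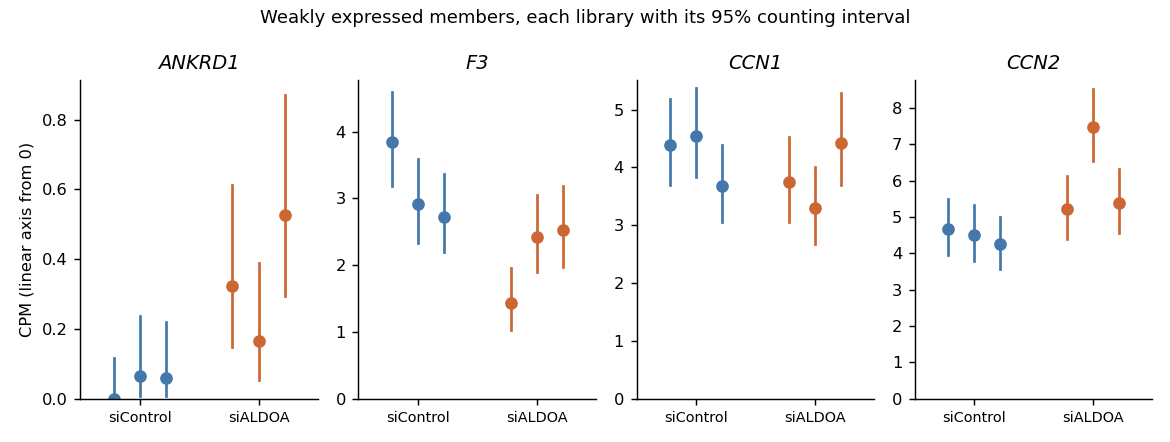
CPM of the 4 weakly expressed YAP target genes ANKRD1, F3, CCN1 and CCN2 in each library, on linear axes from 0, with exact 95% Poisson intervals that cover counting error only. The intervals of ANKRD1 are wide, from 0.0540 to 0.388 CPM in siALDOA replicate 2, and CCN2 is highest in siALDOA replicate 2 at 7.49 CPM.

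F3 encodes tissue factor, the cell-surface receptor that starts blood coagulation. F3 (ENSG00000117525, chr1:94529173-94541759) was at 1.44, 2.43 and 2.53 CPM with siALDOA, from 40, 73 and 72 counts. With siControl it was at 3.85, 2.92 and 2.73 CPM, from 120, 89 and 90 counts. The groups did not overlap, but the counting intervals of siALDOA replicate 3 (1.98 to 3.19 CPM) and siControl replicate 3 (2.20 to 3.36 CPM) did. The log2 fold change of F3 was -0.56 (standard error 0.253, 95% interval -1.09 to -0.04, edgeR adjusted p = 0.179), also short of it. It was -0.35 without siALDOA replicate 1 and -0.70 without siALDOA replicate 3. A share of 0.934% of the 50-base words of its transcript occurs in the main transcripts of other genes, the highest share among the 10 genes. The promoter window of F3 holds no TEAD motif and 2 matches of the AP-1 motif, which occurs in 7.71% of all windows on either strand.

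NT5E encodes CD73, the enzyme on the cell surface that turns AMP into adenosine. NT5E (ENSG00000135318, plus strand, chr6:85449584-85495791) was at 160, 142 and 149 CPM with siALDOA, from 4447, 4273 and 4236 counts. With siControl it was at 118, 108 and 107 CPM, from 3686, 3303 and 3522 counts. The lowest siALDOA library lay above the highest siControl library. NT5E rose from 111 ± 6.18 CPM (SD, n = 3) to 150 ± 8.86 CPM (SD, n = 3), a fold change of 1.35 with a 95% interval from 1.24 to 1.48. Its log2 fold change was 0.44 (standard error 0.063, edgeR adjusted p = 8.57e-05), and in each of the alternatives run it stayed between 0.39 and 0.51 with an adjusted p of at most 0.00202. NT5E and CCN2 had nearly the same estimate, and the standard error of CCN2 was the larger. The promoter window of NT5E, drawn around a start site 499 bases inside its span, holds neither the TEAD nor the AP-1 motif. The tested genes whose log2 CPM followed that of NT5E most closely over the 6 libraries were PPP3CB, AQP2 and NCBP3, each with a Pearson's r of 0.996. With 6 libraries in 2 groups and 15307 genes to choose from, such values describe the pattern only.

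AMOTL1 and AMOTL2 are angiomotin-like proteins that bind YAP at cell junctions and hold it outside the nucleus, and AJUBA is a LIM-domain protein that restrains the LATS kinases. These genes are therefore targets and regulators of YAP at once. AMOTL1 (ENSG00000166025, chr11:94706431-94876748) had 0 counts in all 6 libraries, as did 25.8% of the listed genes. At this depth a count of 0 allows a level of up to 0.108 CPM in a siALDOA library and up to 0.0983 CPM in a siControl library. These limits cover counting error only, and the annotation behind the counts is not given in the sources used here. No direction could be read for AMOTL1, and no fold is given.

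Its paralog AMOTL2 (ENSG00000114019, chr3:134355347-134375479) was at 75.0, 77.7 and 80.5 CPM with siALDOA and at 71.2, 84.6 and 79.2 CPM with siControl. The siControl libraries enclosed the siALDOA libraries, of which none stood apart. The log2 fold change of AMOTL2 was -0.01 (standard error 0.068, 95% interval -0.15 to 0.13, edgeR adjusted p = 0.945), and with library totals in place of TMM factors it was 0.06. The transcripts of AMOTL1 and AMOTL2 share no stretch longer than 17 bases, and the pseudogene RPL39P5, not listed in the tables, overlaps 3.84% of the AMOTL2 transcript on the same strand. AJUBA (ENSG00000129474, chr14:22971177-22982551) was at 83.8, 81.9 and 83.7 CPM with siALDOA and at 90.5, 84.7 and 85.6 CPM with siControl. The groups did not overlap by a narrow margin, from 83.8 to 84.7 CPM. The log2 fold change of AJUBA was -0.06 (standard error 0.060, 95% interval -0.19 to 0.06, edgeR adjusted p = 0.572), and with library totals it was 0.01. For both genes the promoter table gives a window at another start besides the one near the start of the main transcript. The TEAD motif lies in the former, whose start site is 1032 bases inside the span given above for AMOTL2 and 5709 bases inside that for AJUBA.

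MYOF encodes myoferlin, a membrane protein of vesicle fusion and membrane repair, and CRIM1 encodes a membrane protein that binds bone morphogenetic proteins. MYOF (ENSG00000138119, chr10:93306429-93482334) was at 75.8, 72.6 and 75.5 CPM with siALDOA and at 71.6, 73.6 and 75.3 CPM with siControl. The groups overlapped, and the log2 fold change of MYOF was 0.02 (standard error 0.061, 95% interval -0.10 to 0.15, edgeR adjusted p = 0.871). CRIM1 (ENSG00000150938, chr2:36355778-36551135) was at 27.7, 27.9 and 25.8 CPM with siALDOA and at 30.5, 31.1 and 27.3 CPM with siControl. The groups overlapped through siControl replicate 3, and the log2 fold change of CRIM1 was -0.13 (standard error 0.082, 95% interval -0.30 to 0.04, edgeR adjusted p = 0.379). The 95% interval of MYOF covers folds from 0.930 to 1.11, and that of CRIM1 covers folds from 0.812 to 1.03.

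The estimate needed to pass the threshold differed widely between the members, and a true change of that size can still be missed. With the standard errors of this fit, NT5E would have passed from an estimated fold of 1.15 on, and AJUBA and MYOF from 1.14. AMOTL2 would have passed from 1.16 and CRIM1 from 1.20. The weakly expressed genes needed more, with 1.46 for CCN2, 1.52 for CCN1 and 1.74 for F3. Counting alone gives CCN1 a coefficient of variation of 9.55% per siALDOA library, against 2.16% for MYOF. The spread between siALDOA replicates was 15.0% for CCN1, 28.4% for F3 and 21.0% for CCN2, and counting alone would give 12.7% for F3 and 7.57% for CCN2. In the siControl libraries CCN2 varied by 4.89%, less than the 8.41% of counting. MYOF varied by 2.42% with siALDOA and 2.47% with siControl, near its counting error of 2.16% and 2.08%. AJUBA varied by 1.29% and 3.55%, where counting gives 2.04% and 1.91%. AMOTL2 varied by 3.53% with siALDOA and by 8.64% with siControl, where counting gives 2.11% and 2.01%.

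**Figure D4:**
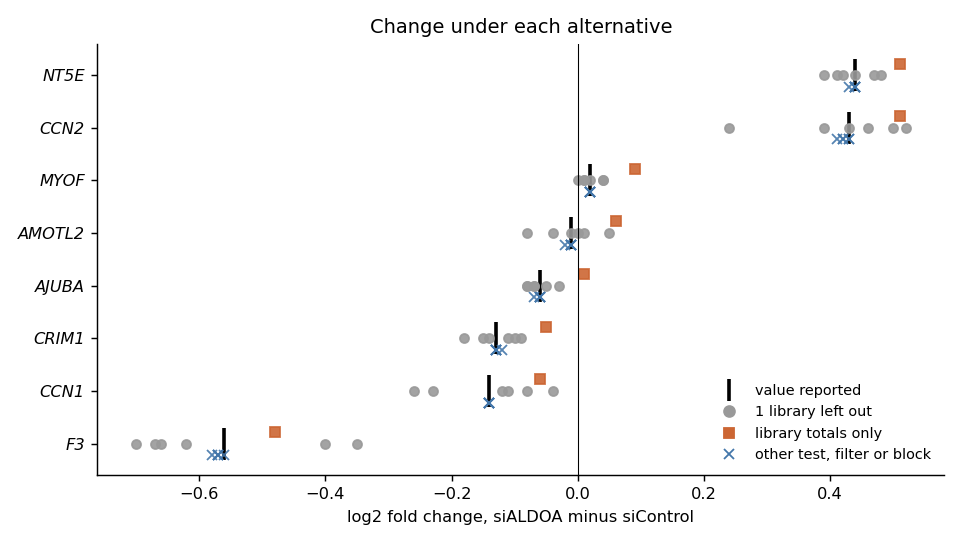
Log2 fold change, siALDOA minus siControl, of the 8 tested YAP target genes as reported (black bars) and under each alternative. Grey points leave out 1 library, orange squares scale by library totals only and blue crosses change the test, filter or block. NT5E stays between 0.39 and 0.51, CCN2 and F3 spread most, and AMOTL2 and AJUBA lie on both sides of 0.

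Other genes of the pathway were read from a list of 15 further YAP and TAZ targets, of which 12 were tested. None was higher past the threshold in edgeR or limma-voom, and 1, AREG, was lower, beside 9.66% of all tested genes in either direction. LATS2, with a log2 fold change of 0.22 in edgeR (adjusted p = 0.0564), was called higher by DESeq2 (adjusted p = 0.0424), with library totals only (0.0427) and with the replicate block (0.0316). At an unadjusted p below 0.05 in edgeR, 1 of the 12 was higher, LATS2, and 1 was lower, AREG, beside 11.3% higher and 12.3% lower of all tested genes. The median log2 fold change of the 12 genes was -0.05, with 3 positive and 9 negative values. IGFBP3 and FOXF2 had 0 counts in every library. AREG encodes amphiregulin, a ligand of the EGF receptor, and was at 25.8, 25.6 and 21.4 CPM with siALDOA and at 27.8, 35.7 and 33.1 CPM with siControl. The groups did not overlap, and its log2 fold change was -0.41 (standard error 0.099, edgeR adjusted p = 0.0105). AREG did not pass the threshold without siALDOA replicate 3 (adjusted p = 0.0647), without siControl replicate 2 (0.0842) or without siControl replicate 3 (0.0526).

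The factors themselves were measured in the same libraries. Of 18 genes of YAP, TAZ, the TEAD factors and the Hippo pathway, 1 passed the threshold in edgeR and was lower. Of all tested genes 5.29% were lower past this threshold. At an unadjusted p below 0.05, 1 of the 18 was higher and 3 were lower, beside 11.3% and 12.3% of all tested genes. The gene lower past the adjusted threshold was NF2, which encodes merlin, an upstream activator of the Hippo kinases. NF2 was at 43.2 ± 3.65 CPM with siALDOA and 58.0 ± 3.41 CPM with siControl (SD, n = 3). Its log2 difference by edgeR was -0.42 (adjusted p = 7.35e-04). STK3 and MOB1B were lower at the unadjusted level only, with log2 fold changes of -0.22 and -0.21 (edgeR adjusted p = 0.160 and 0.138). The higher gene at the unadjusted level was VGLL1, a TEAD co-factor, with a log2 fold change of 1.00 (adjusted p = 0.0847) at a mean of 1.64 CPM with siALDOA and 0.816 CPM with siControl. YAP1 mRNA had a log2 fold change of 0.11 with an adjusted p = 0.270, and WWTR1, the gene of TAZ, had 0.683 CPM with siALDOA and 1.15 CPM with siControl (adjusted p = 0.242). Among the TEAD factors, TEAD1 was at 205 CPM with siALDOA and 218 CPM with siControl, and the estimates of all TEAD genes lay between -0.10 and -0.03 on the log2 scale, short of the threshold.

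CCN1 and CCN2 also respond within minutes to growth factors, like the immediate early genes, so a list of 14 of these was read beside them. Of the 13 tested, 2 passed the threshold in edgeR and both were lower, and at an unadjusted p below 0.05, 2 were higher and 6 lower, beside 5.29% lower of all tested genes at the first level and 11.3% higher and 12.3% lower at the second. The list had a median log2 fold change of -0.18. JUN, a component of AP-1, fell by 0.41 on the log2 scale (adjusted p = 5.02e-05), and EGR1, a zinc-finger factor induced by growth factors, fell by 0.40 (adjusted p = 0.0362). Relative to the siControl mean, the median of the 13 genes was -0.27, -0.17 and -0.05 in siALDOA replicates 1, 2 and 3 on the log2 scale. The corresponding medians of the 8 tested YAP target genes were -0.06, -0.05 and 0.04. Among the siALDOA libraries CCN1 was highest in replicate 3, where both medians were highest too, and CCN2 was highest in replicate 2, where neither was. The 8 genes include CCN1 and CCN2 themselves, and the order of 3 libraries cannot show whether a gene follows a list. The part of these genes in the values of CCN1 and CCN2 was not tested.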

How the data were processed

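RNA-Seq of 6 HT29 libraries, 3 siALDOA and 3 siControl, was used. The authors aligned 150 bp paired-end reads to hg38 with TopHat2 2.1.1 and counted them with gfold 1.1.4, and they deposited whole-number counts per gene symbol without normalization. The annotation, strand setting and treatment of reads with several matches are not given in the sources used here. The totals were 27277538 to 33237914 counts per library.

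Counts were tested in R 4.3.3 with edgeR 4.0.16 (filterByExpr, TMM, quasi-likelihood test without a covariate) and Benjamini-Hochberg adjustment over 15307 genes. The standard error was taken as the estimate over the root of its F statistic. The smallest estimate that would have passed is the standard error times the t quantile at the largest unadjusted p that passed, 0.00483. A true change of that size can be missed. Log2 CPM used a prior count of 2. Alternatives were limma-voom (limma 3.58.1), DESeq2 1.42.0, library totals only, no filter, a minimum of 10 counts per library, leaving out single libraries and blocking on the replicate number. The fits of ANKRD1 without the filter were added after the data were seen. The method was tested on simulated data. Lengths, positions and 50-base words came from the main transcript of each gene in GENCODE release 44, a GRCh38 annotation, and promoter windows from RefSeq (GRCh38.p14). RefSeq and GENCODE starts can differ. Motifs were searched on both strands, and the CArG motif occurred in the windows of 0 of the 8 genes, against 1.29% of all.

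The members and lists were chosen with earlier results of these data known. The rule for named genes took all members, ALDOA, AREG, YAP1, WWTR1, TEAD1 to TEAD4, list genes with an adjusted p below 0.05 and the 3 genes most correlated with a called member. LATS2, VGLL1, STK3, MOB1B and called markers were named after their values were seen, as were marker genes at 0 counts. The study's gene set enrichment and its other experiments were not analysed here.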

Additional observations from a re-analysis of the deposited data

How the results depend on the processing

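NT5E and ALDOA kept their direction and their call in all 12 alternatives, and CCN1, CCN2, F3, MYOF and CRIM1 kept their direction without a call. With library totals only, which moved the median of all tested genes to 0.075, AMOTL2 was at 0.06, AJUBA at 0.01 and the median of the 8 genes at 0.04, while 896 genes of all tested were higher and 279 lower. AMOTL2 was also above 0 without siALDOA replicate 1 (0.01) and without siControl replicate 2 (0.05), in a range from -0.08 to 0.05. ANKRD1 without the filter passed the threshold in limma-voom, with 2.79. Leaving out 1 library gave 359 to 644 higher and 471 to 790 lower genes of all tested, 1 to 2 higher YAP target genes (the other being ANKRD1, which without siALDOA replicate 2 entered the fit only through the counts of the group where it was higher, so that this count of 2 carries no weight) and 0 to 1 lower gene among the other targets (AREG). The other targets had 1 higher gene, LATS2, in DESeq2, with library totals only and with the replicate block.

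Same-numbered libraries did not deviate together, with correlations of 0.035, 0.027 and 0.026 over 15307 genes, although each library correlated best with its own number. With the replicate block 987 genes were higher and 1175 lower, against 668 and 810 without it, and no call of a YAP target gene changed. At this depth no direction could be read for AMOTL1, and ANKRD1 rests on 29 and 4 counts.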
